A study of Zea mays with 4 samples.

Results

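The sequences described here are the members of the microRNA families miR156, miR529 and miR172 in leaves of maize (Zea mays) fed on by larvae of the fall armyworm, Spodoptera frugiperda. They were chosen by name alone: every row whose name holds one of these family numbers, with each distinct sequence used once. This gave 28 of the 319 distinct sequences in the table, of which 22 carry a miR156 name, 1 a miR529 name and 5 a miR172 name. Small RNA was sequenced from leaves at the 4-leaf stage. The fed libraries are titled T1, from leaves on which larvae had fed for 1 day, and T3, where they had fed for 3 days. The libraries titled CK1 and CK3 carry the tissue as their only label, with no feeding and no time given. Each group has 1 column of values. The protocol names more libraries than there are columns, and whether a column combines several of them is not stated, so "library" stands here for a column. No cultivar is named, and the labels do not say how many plants went into a group. Values are the authors' normalized units per sequence, whose scaling is not given in the sources used here.

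miR156 and miR529 guide the cleavage of transcripts of SPL transcription factors (SQUAMOSA PROMOTER BINDING PROTEIN-LIKE), and miR172 acts on transcripts of AP2-like factors. In maize and other plants miR156 is known to be abundant in juvenile leaves and to decline with age, while miR172 increases as SPL levels go up, so that the pair times the passage from juvenile to adult leaves. In maize the Corngrass1 mutant overproduces miR156 and stays juvenile, and glossy15, an AP2-like gene for juvenile leaf traits, is a target of miR172. A microRNA precursor folds into a hairpin and yields a 5p and a 3p arm. For miR156 and miR529 the 5p arm is the guide that acts on targets, and for miR172 it is the 3p arm.

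The miR156 guides in the table fell into 3 types that differ at a single base, and these are shown because most of the family's signal sits in them. Positions are counted from 1 at the 5′ end of the 20-base core, zma-miR156a-5p. Against that core, zma-miR156j-5p_R-1 has T14A, and zma-miR156k-5p_L+1 has T14C after 1 extra base at its 5′ end. Capitals mark bases 2 to 8, the seed.
zma-miR156a-5p: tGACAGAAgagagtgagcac
zma-miR156k-5p_L+1: tTGACAGAagagagcgagcac
zma-miR156j-5p_R-1: tGACAGAAgagagagagcac
The extra base moves the seed. Of the 22 members counted as family sequences, by a maize name or by a shared run as set out below, 7 share the seed GACAGAA. In 2 others, zma-miR156k-5p_L+1 and ahy-miR156b-5p, it is shifted by a base to TGACAGA. No sequence outside the 3 families had a seed found among these 22.

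The 3p partners could be sorted into the same types, because their 5′ ends pair with bases 13 to 18 of the guide, where the types differ. In the next lines capitals mark those bases in each guide type and the bases complementary to them in the 3p sequences.
zma-miR156a-5p: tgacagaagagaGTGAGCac
zma-miR156l-3p: GCTCACtgctctatctgtcacc
zma-miR156d-3p: GCTCACttctctttctgtcagc
zma-miR156k-5p_L+1: ttgacagaagagaGCGAGCac
zma-miR156k-3p_L+1: tGCTCGCttctctttctgtcagc
zma-miR156j-5p_R-1: tgacagaagagaGAGAGCac
zma-miR156j-3p_L-1: GCTCTCtgctctcactgtcatc
Of the 10 miR156 3p sequences 8 were of the type of zma-miR156a-5p, and the types of zma-miR156k-5p_L+1 and zma-miR156j-5p_R-1 had a single 3p sequence each. The arms also differed in size: the 9 guides were 20 to 23 nt long and all began with T, while the 3p sequences were 21 to 23 nt long and 9 of the 10 began with G.

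miR529 was represented by its guide only. It shares a run of 13 bases with zma-miR156j-5p_R-1, shown in capitals, which lies at bases 1 to 13 of miR529 and bases 5 to 17 of the miR156 guide.
zma-miR529-5p: AGAAGAGAGAGAGtacagcct
zma-miR156j-5p_R-1: tgacAGAAGAGAGAGAGcac
For miR172 the table held the guide zma-miR172a_R+1 and, from the other arm, zma-miR172c-5p_L+1, shown with their seeds in capitals.
zma-miR172a_R+1: aGAATCTTgatgatgctgcat
zma-miR172c-5p_L+1: gCAGCACCaccaagattcaca

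Names went further than sequences. Of the 14 members named after other plants, 8 share runs of 11 to 21 bases with a maize member of the same family. The other 6 members named after other plants, 3 under miR156 and 3 under miR172, are 18 or 19 nt long and share no run of more than 6 bases with any maize member of their family, on either strand. They include ptc-MIR156h-p3_2ss3AG18CA and nta-MIR172f-p3_2ss15CG19TA, shown here with bases 2 to 8 in capitals for comparison with the seeds of the families.
ptc-MIR156h-p3_2ss3AG18CA: cGGTGAAAtgcatggagat
nta-MIR172f-p3_2ss15CG19TA: aTTGGAACgatacagagaa
These 6 stayed low, with a highest value of 10.7 units, reached by cca-MIR156c-p3_2ss7CT17AC in CK3. They are counted as members because the rule uses names, but they are called name-only members below, and the remaining 22 are called family sequences. The dividing line, a shared run of at least 10 bases, was drawn after the sequences were seen and was applied only to members named after other plants. Members with a maize name were counted as family sequences by their name. Hairpin sequences were not compared, so whether the name-only members come from other parts of a precursor was not tested.

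A value of 0 does not show absence. In each library most values were whole multiples of a step that is taken as the worth of 1 read, 0.736 units in CK1 and 0.826 in CK3, against 0.303 in T1 and 0.352 in T3. Nearly no listed value stood below 5 reads, which equal 3.68 units in CK1 and 4.13 in CK3, against 1.51 in T1 and 1.76 in T3. The listed sequences summed to 87014 implied reads in CK1 and 90834 in CK3, against 209054 in T1 and 180674 in T3, so the fed libraries were the deeper ones. Intervals below are exact 95% intervals computed from implied reads. They reflect counting error alone, and since the labels mention no molecular identifiers, a read need not be a separate molecule. No insect microRNA name from the list used was in the table. That check concerns names only and does not show whether larval RNA was present.

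miR156 was the most abundant of the 3 families in every library. Its 22 sequences summed to 1458 units in CK1 and 1301 in CK3, against 1404 in T1 and 1509 in T3, which placed it 7th, 7th, 7th and 6th among 65 families. The miR529 guide followed at 50.0 units in CK1 and 74.3 in CK3, against 36.9 in T1 and 39.4 in T3. All miR172 names together came to 30.5 units in CK1, were listed at 0 in CK3, and came to 39.1 in T1 and 38.4 in T3. In the fed libraries, where miR529 was at its lowest, the totals of miR529 and of all miR172 names lay close together. Without name-only members miR172 was lower than miR529 there, at 23.6 units in T1 and 21.5 in T3. miR156 was 17.5-fold above miR529 in CK3, 29.1-fold in CK1, 38.0-fold in T1 and 38.3-fold in T3. With all 5 names, miR172 was 47.7-fold below miR156 in CK1, 36.0-fold in T1 and 39.3-fold in T3.

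**Figure D1:**
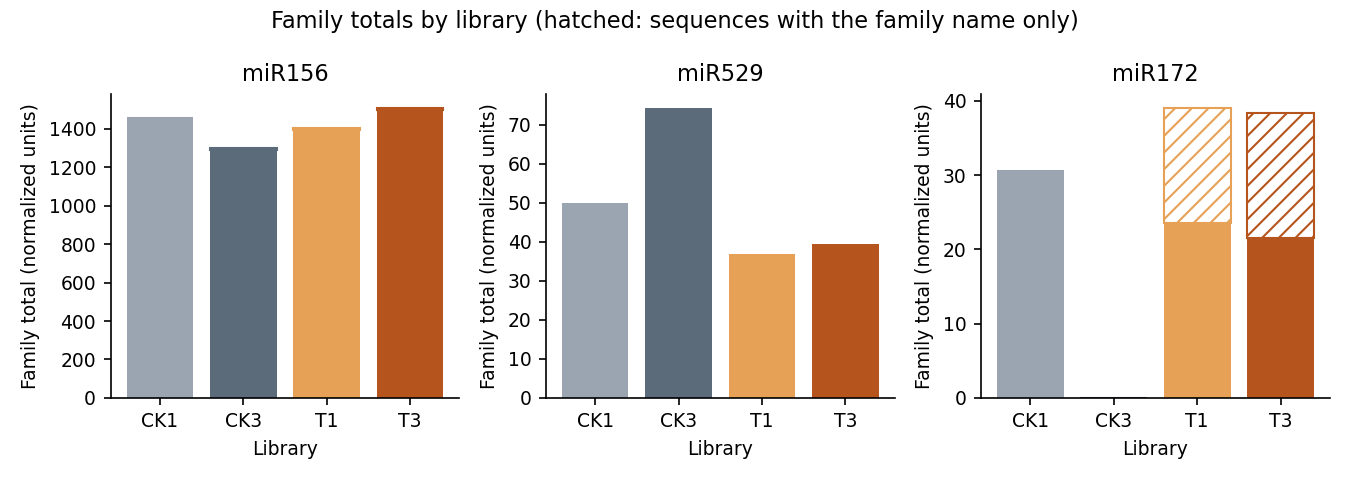
Family totals in normalized units (vertical axes, each starting at 0 with its own scale) for miR156, miR529 and miR172 in the 4 libraries, 1 library per bar. Hatched parts are name-only members, which make up 15.4 of 39.1 units of miR172 in T1 and 16.9 of 38.4 in T3, and miR172 is listed at 0 in CK3.

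Within miR156 a pair of guides led. zma-miR156k-5p_L+1 was at 517 units in CK1 and 378 in CK3, against 457 in T1 and 544 in T3. zma-miR156a-5p, listed in 10 rows of the table, was at 310, 441, 426 and 444 in the same order. Together they held 56.9% of the family sequences of miR156 in CK1 and 63.5% in CK3, against 63.3% in T1 and 65.8% in T3.

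Which of the pair was higher differed between the libraries. Of their sum, zma-miR156k-5p_L+1 took 62.5% in CK1 (interval 59.6% to 65.3%), 46.2% in CK3 (43.0% to 49.3%), 51.8% in T1 (49.9% to 53.6%) and 55.0% in T3 (53.2% to 56.9%). The unfed libraries were the extremes of this share, one above and one below both fed libraries. In T1 the interval reached below an equal split.

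The third guide type was far lower. zma-miR156j-5p_R-1 was at 38.3 units in CK1 and 8.26 in CK3, against 44.2 in T1 and 44.4 in T3, so CK3 stood alone at about 10 implied reads. The 3p sequence of the same type, zma-miR156j-3p_L-1, was listed at 0 in CK1 and CK3 and at 10.9 units in T1 and 4.93 in T3.

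Longer forms of the zma-miR156a-5p core were also listed, and they are printed because they differ only in the bases added at the 3′ end, shown in capitals.
bdi-miR156b-5p_R+1: tgacagaagagagtgagcacC
bdi-miR156b-5p_R+2: tgacagaagagagtgagcacCA
bdi-miR156b-5p_R+3: tgacagaagagagtgagcacCCA
aof-miR156a_R+1: tgacagaagagagtgagcacT
These 4 forms together made up 9.45% of the units of core and forms in CK1 (interval 6.94% to 12.5%), 10.1% in CK3 (7.80% to 12.8%), 8.52% in T1 (7.17% to 10.03%) and 13.9% in T3 (12.2% to 15.8%). T3 had the highest share, and its interval overlapped that of CK3 and CK1 at the edge. bdi-miR156b-5p_R+1 was found in all libraries, at 21.3 units in CK1 and 19.0 in CK3, against 16.0 in T1 and 33.1 in T3. bdi-miR156b-5p_R+2 was listed at 0 in CK1 and at 23.1 in CK3, 10.3 in T1 and 17.6 in T3. bdi-miR156b-5p_R+3 was at 4.42, 7.43, 7.87 and 13.7 units. T3 was thus the highest library for the forms with 1 added C and with 3 added bases, and CK3 for that with 2. aof-miR156a_R+1 was at 6.62 in CK1, listed at 0 in CK3, and at 5.45 in T1 and 7.39 in T3, and aof-miR156a_R+1_1ss9GT, which differs from it by G9T, was listed at 0 in CK1 and at 8.26, 3.63 and 3.52 in the others.

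The 3p arm of miR156, usually the passenger strand that is degraded, was well represented. zma-miR156l-3p, whose sequence the table also lists as zma-miR156e-3p_2ss13CA21TC, was at 209 units in CK1 and 150 in CK3, against 145 in T1 and 136 in T3. zma-miR156d-3p was at 123, 150, 98.3 and 105 units, and zma-miR156k-3p_L+1 at 122, 79.3, 95.7 and 92.9. These 3 sequences and the leading guide pair held between 87.7% and 92.9% of the family sequences of miR156 in a library.

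ata-miR156b-3p_1ss6TC, which differs from zma-miR156d-3p by T13C counted from its own 5′ end, had the widest spread of the 3p sequences found in all libraries. It was at 86.8 units in CK1 and 8.26 in CK3, against 44.8 in T1 and 35.9 in T3. As with zma-miR156j-5p_R-1, CK3 was the low library. zma-miR156i-3p had another pattern, with 7.36 units in CK1, 11.6 in CK3, 10.3 in T1 and a listing at 0 in T3. The remaining 3p sequences, zma-miR156a-3p, zma-miR156b-3p, zma-miR156h-3p and cme-MIR156j-p3, stayed below 10 units everywhere, with a highest value of 8.83 for zma-miR156a-3p in CK1. cme-MIR156j-p3 was listed in T1 only, at 3.63 units, as were ahy-miR156b-5p at 1.21 and ptc-MIR156h-p3_2ss3AG18CA at 5.75.

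**Figure D2:**
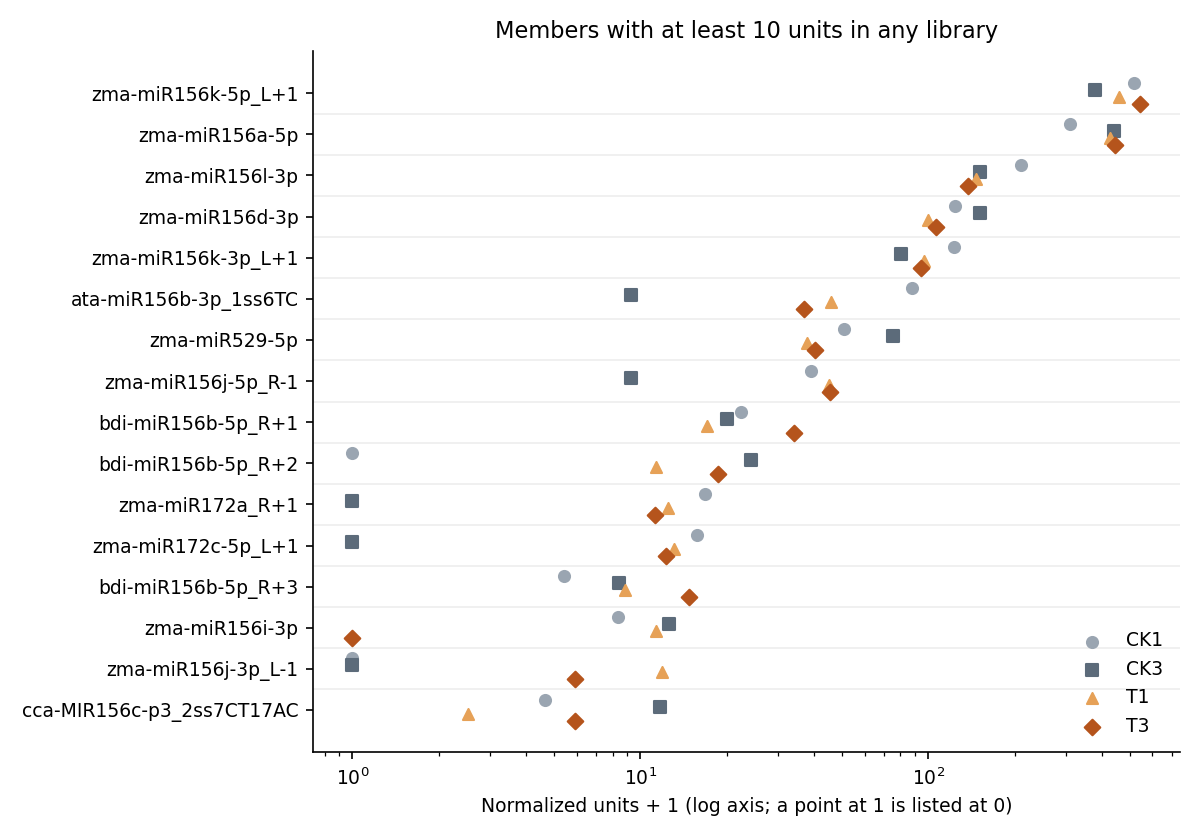
Level of each of the 16 members with at least 10 units in any library, as normalized units plus 1 on a logarithmic horizontal axis, with 1 point per library. CK3 stands apart at 8.26 units for ata-miR156b-3p_1ss6TC and zma-miR156j-5p_R-1, and both miR172 sequences are listed at 0 there.

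Summed by arm, the 9 guides of miR156 came to 898 units in CK1 and 886 in CK3, against 972 in T1 and 1107 in T3, and the 10 3p sequences to 557, 405, 422 and 394. The 3p arm therefore held 38.3% of miR156 in CK1 (interval 36.1% to 40.5%), 31.4% in CK3 (29.1% to 33.7%), 30.3% in T1 (29.0% to 31.6%) and 26.2% in T3 (24.9% to 27.6%). CK1 was highest and T3 lowest, and CK3 and T1 did not differ beyond counting error.

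The arms were balanced differently in the guide types. For the type of zma-miR156a-5p the 3p arm outweighed the guides in CK1, with 55.9% of the units (52.9% to 58.9%), but not in CK3 with 39.5% (36.4% to 42.6%), T1 with 40.2% (38.3% to 42.1%) or T3 with 36.3% (34.3% to 38.3%). For the type of zma-miR156k-5p_L+1 the 3p share was between 14.6% in T3 (13.005% to 16.3%) and 19.1% in CK1 (16.6% to 21.9%). In every library the 3p share was thus at least 2-fold higher in the first type, by counts of implied reads within the same library. Since the table lists some sequences with parts of reads, as for zma-miR156a-5p, how shared reads were divided between sequences can enter these shares, and this was not tested.

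**Figure D3:**
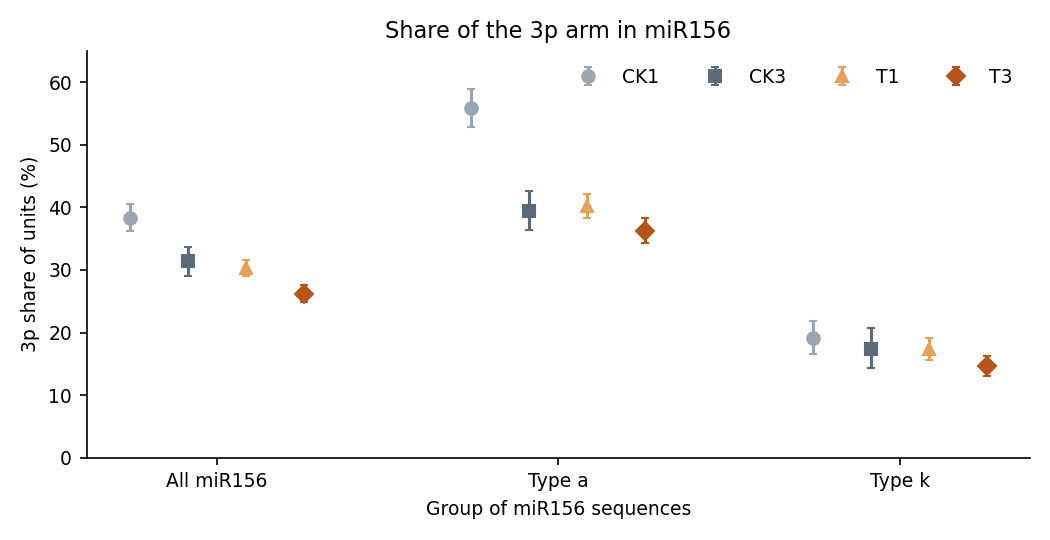
Share of the 3p arm (vertical axis, percent of normalized units) in all miR156 family sequences and in the types of zma-miR156a-5p (Type a) and zma-miR156k-5p_L+1 (Type k), with 1 point per library and bars for exact 95% counting intervals. CK1 lies highest in each group, at 38.3%, 55.9% and 19.1%, and T3 lowest, at 26.2%, 36.3% and 14.6%.

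After 1 day of feeding, T1 was set against CK1, the control with the same number in its title. T1 held 0.963 times the miR156 of CK1 (interval 0.914 to 1.02), 0.738 times the miR529 (0.544 to 1.01) and, with all names, 1.28 times the miR172 (0.905 to 1.89). Every one of these intervals included equality. Against the other unfed library, CK3, T1 held 1.08 times the miR156 (1.02 to 1.14) and 0.497 times the miR529 (0.375 to 0.660). For miR172 it held 39.1 units, where CK3 is listed at 0. The choice of unfed library thus turned the direction for miR156. Against CK1 the arms of miR156 went apart, at 1.08 times for the guides (1.01 to 1.16) and 0.758 times for the 3p arm (0.693 to 0.829). Against CK3 they did not, at 1.10 times for the guides (1.02 to 1.18) and 1.04 times for the 3p arm (0.941 to 1.16). Among the guides zma-miR156a-5p was 1.37-fold higher in T1 than in CK1 (1.23 to 1.53), whereas zma-miR156k-5p_L+1 was at 0.885 times its CK1 level (0.809 to 0.969). With CK3 as the control they were at 0.965 times (0.874 to 1.07) and 1.21 times (1.09 to 1.34), so these guides changed places. All 4 leading 3p sequences were lower in T1 than in CK1, from 0.801 times for zma-miR156d-3p (0.662 to 0.971) to 0.516 times for ata-miR156b-3p_1ss6TC (0.402 to 0.663). Relative to CK3 they were mixed. zma-miR156d-3p was at 0.656 times (0.547 to 0.794) and zma-miR156l-3p at 0.967 times (0.814 to 1.15). zma-miR156k-3p_L+1 was at 1.21 times (0.958 to 1.53) and ata-miR156b-3p_1ss6TC at 5.43 times (2.87 to 11.6). These intervals hold no variation between plants or library preparations.

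Members were called higher or lower by size alone: at least a 2-fold difference in log2(units + 1) and at least 10 units in the higher library. Of 14 members compared between T1 and CK1, 2 were higher and none was lower, against 15.8% higher and 10.3% lower among all 165 sequences compared. The higher ones were zma-miR156j-3p_L-1 and bdi-miR156b-5p_R+2, at 10.9 and 10.3 units in T1 and both listed at 0 in CK1. The median log2 difference of the 14 members was -0.29, and that of all compared sequences was -0.12. With CK3 as the control, 5 of 15 members were higher in T1 and 2 lower, against 16.3% and 25.8% of all sequences. bdi-miR156b-5p_R+2 was then among the lower ones, since CK3 held 23.1 units of it.

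Among miR172 the family sequences and the name-only members differed in this comparison. zma-miR172a_R+1 was at 15.8 units in CK1 and 11.5 in T1, and zma-miR172c-5p_L+1 at 14.7 and 12.1. Their sum in T1 was 0.773 times that in CK1 (0.530 to 1.17). The 3 name-only members were listed at 0 in both unfed libraries and summed to 15.4 units in T1 and 16.9 in T3. The total over all miR172 names was therefore higher in T1 than in CK1, while the total of its family sequences was lower. In CK1 5 reads equal 3.68 units. Of the name-only members, lus-MIR172d-p3_2ss6GA17TA lay below that in T1 at 2.12 units, and the others lay above it at 4.84 and 8.48.

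After 3 days of feeding, T3 was compared with CK3. miR156 was 1.16-fold higher in T3 (interval 1.09 to 1.23), with the guides at 1.25 times (1.17 to 1.34) and the 3p arm at 0.972 times the CK3 level (0.874 to 1.08). zma-miR156k-5p_L+1 was 1.44-fold higher (1.29 to 1.60), and zma-miR156a-5p was nearly level at 1.01 times (0.909 to 1.12). With CK1 as the control these guides changed places. zma-miR156k-5p_L+1 was then at 1.05 times (0.962 to 1.15), and zma-miR156a-5p was 1.43-fold higher in T3 (1.28 to 1.60). The guides together were at 1.23 times the CK1 level (1.15 to 1.32) and the 3p arm at 0.707 times (0.644 to 0.776). miR529 was at 0.531 times its CK3 level (0.398 to 0.708), from 74.3 to 39.4 units, short of the 2-fold rule on the log2(units + 1) scale with a difference of -0.90. Against CK1 the miR529 level in T3 was 0.788 times, with an interval of 0.578 to 1.08.

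Of 15 members compared between T3 and CK3, 4 were higher and 1 was lower, against 24.9% higher and 23.2% lower among 185 sequences. The higher ones were both miR172 family sequences, listed at 0 in CK3 and at 10.2 units for zma-miR172a_R+1 and 11.3 for zma-miR172c-5p_L+1 in T3, together with zma-miR156j-5p_R-1 and ata-miR156b-3p_1ss6TC. zma-miR156j-5p_R-1 was 5.37-fold higher (2.83 to 11.5) and ata-miR156b-3p_1ss6TC 4.35-fold higher (2.27 to 9.34), both from 10 implied reads in CK3. The lower one was zma-miR156i-3p, listed at 0 in T3. The median log2 difference of the members was 0.23, against 0.01 for all compared sequences. Scaling the libraries to equal totals raised the median of all sequences to 0.31 and changed their split from 46 higher and 43 lower to 57 and 33, while the members' counts became 5 and 1. With median-of-ratios scaling the members' counts were 3 and 1, beside 45 higher and 43 lower among all sequences.

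Between the fed libraries, T3 held 1.07 times the miR156 of T1 (1.03 to 1.12), 1.07 times its miR529 (0.819 to 1.39) and 0.909 times its miR172 family sequences (0.640 to 1.29).

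The choice of unfed library mattered for the same members. Against CK1, 2 of 13 members were higher in T3 and 1 lower, beside 20.2% and 7.51% of all 173 sequences. zma-miR172a_R+1, zma-miR172c-5p_L+1 and ata-miR156b-3p_1ss6TC were lower in T3 than in CK1, with log2 differences of -0.59, -0.36 and -1.25. zma-miR156j-5p_R-1 had a log2 difference of only 0.21. Both feeding comparisons and the comparison of the unfed libraries share libraries, so their values are given side by side and are not independent.

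**Figure D4:**
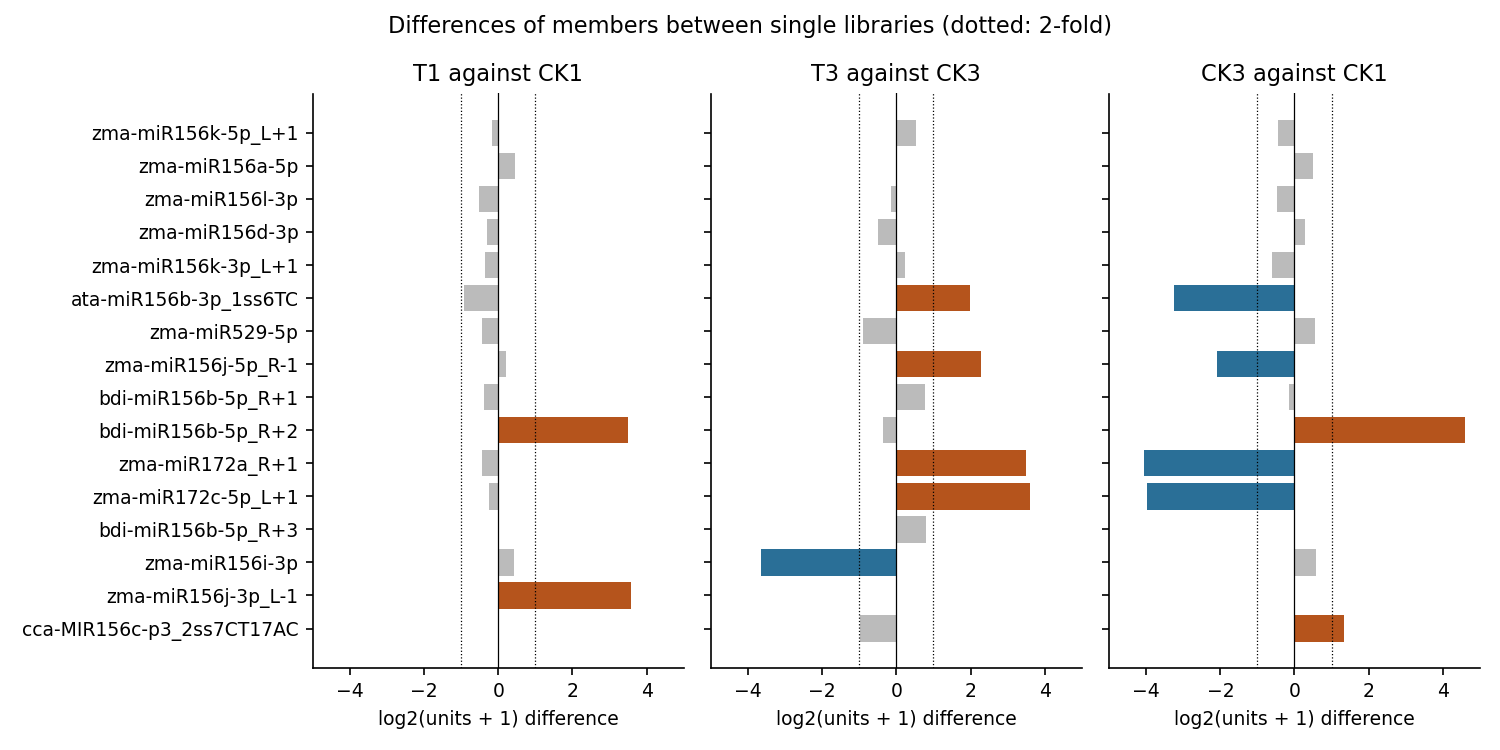
Difference in log2(units + 1) between single libraries (horizontal axes) for members with at least 10 units in either library of the comparison, with coloured bars for those past the 2-fold rule and dotted lines at 2-fold. Of the members, 2 are higher for T1 against CK1, 4 are higher and 1 lower for T3 against CK3, and 2 are higher and 4 lower for CK3 against CK1.

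The unfed libraries differed from each other in more of these members than T1 did from CK1, and the whole table did likewise. Of all sequences compared between T1 and CK1, 15.8% were higher and 10.3% lower. Of 14 members compared, 2 were higher in CK3 than in CK1 and 4 were lower, against 28.9% higher and 22.5% lower among 187 sequences. The lower ones were the 2 miR172 family sequences, zma-miR156j-5p_R-1 at 0.216 times its CK1 level (0.0978 to 0.429) and ata-miR156b-3p_1ss6TC at 0.0951 times (0.0444 to 0.181). The higher ones were bdi-miR156b-5p_R+2 and the name-only member cca-MIR156c-p3_2ss7CT17AC, at 3.68 units in CK1 and 10.7 in CK3. miR156 as a whole was at 0.892 times its CK1 level (0.835 to 0.954), miR529 was 1.49-fold higher in CK3 (1.07 to 2.07), and miR172 was listed at 0. The median of the members was -0.30 and that of all compared sequences 0.22. Under equal totals the median of all sequences moved to -0.06, and their split turned from 54 higher and 42 lower to 44 and 55.

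miR172 was listed at 0 in CK3, where 5 reads equal 4.13 units, so its level there is not known. Its family sequences stood for 41 implied reads in CK1, 78 in T1 and 61 in T3. With every sequence listed at 0 set to the value of 5 reads, an alternative chosen after the data were seen, zma-miR172a_R+1 still had a log2 difference of 1.13 and zma-miR172c-5p_L+1 one of 1.26 between T3 and CK3. Between the arms, zma-miR172c-5p_L+1 made up 48.2% of the pair in CK1 (interval 32.9% to 64.9%), 51.3% in T1 (39.7% to 62.8%) and 52.5% in T3 (39.3% to 65.4%). The guide and the other arm thus did not differ beyond counting error in CK1, T1 or T3. In CK3, with both listed at 0, they could not be compared.

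More members were listed in the fed libraries. All 28 had a value above 0 in T1 and 24 in T3, against 16 in CK1 and 15 in CK3. The whole table did likewise: of the 319 sequences 87.8% had a value above 0 in T1 and 86.5% in T3, against 64.3% in CK1 and 63.0% in CK3. The difference is therefore not read as one of these families. The fed libraries were also the deeper ones, and the part of depth in this difference was not tested. Of the 9 members listed at 0 in both unfed libraries, 3 stayed below the CK1 value of 5 reads in both fed libraries and could have been present in the unfed leaves at the same level without being listed. Over all 319 sequences 78 were at 0 in both unfed libraries.

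With T1 and T3 taken as fed and CK1 and CK3 as unfed, 13 members entered a limma fit over the 154 sequences with at least 10 units in at least 2 libraries. No member was called and none of the 154 sequences was (0%), with an adjusted p (Benjamini-Hochberg) of 0.83 to 0.98 for the members in limma. At an unadjusted p of 0.05, limma passed 6 of the 154 sequences and none of the 13 members. The spread in this fit includes the difference between the feeding times and that between CK1 and CK3. zma-miR156j-5p_R-1 had the smallest p of the members, with a fed minus unfed log2 difference of 1.25 ± 0.82 (SE, 2 libraries against 2), and its fed libraries at 44.2 and 44.4 units lay above the unfed ones at 38.3 and 8.26. zma-miR529-5p had a difference of -0.66 ± 0.48, with 36.9 and 39.4 units in fed and 50.0 and 74.3 in unfed leaves. The fed and unfed values did not overlap for these and for zma-miR156d-3p and zma-miR156l-3p, 4 of the 13 members (30.8%), beside 42 of the 154 sequences (27.3%), so the members' share lay near that of all sequences. zma-miR156a-5p had 0.23 ± 0.36 and zma-miR156k-5p_L+1 0.17 ± 0.35, with unfed values on both sides of a fed one.

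Fitted as family totals among 44 families, fed minus unfed was 0.08 ± 0.21 for miR156, -0.66 ± 0.39 for miR529 and 2.82 ± 1.88 for miR172 on the log2 scale, with limma adjusted p of 0.91, 0.63 and 0.63. Of the 44 families 1 was called, and it was not among these. The totals take all names. That of miR172 thus holds name-only members at 15.4 units in T1 and 16.9 in T3, all listed at 0 in both unfed libraries. The 95% interval for miR156 ran from -0.53 to 0.69, that for miR529 from -1.79 to 0.46 and that for miR172 from -2.62 to 8.27, so changes of 2-fold in either direction lie outside the miR156 interval but within that of miR172.

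Other families with roles in leaf development give the setting. The list of miR159, miR160, miR164, miR166, miR167, miR171, miR319, miR390 and miR396 had a median log2 difference of -0.27 between T1 and CK1, with none of 9 past 2-fold, beside -0.05 for miR156. Between T3 and CK3 the median was 0.38, with 4 of 9 at least 2-fold higher, beside 0.21 for miR156. Between CK3 and CK1 it was -0.63, with 2 of 9 at least 2-fold lower, beside -0.16 for miR156. miR319 was among those past 2-fold in both comparisons that include CK3, where it stood at 2.06 units, below the 4.13 units of 5 reads. No count over all families is given for these comparisons.

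By distance between centred log2 totals over the 4 libraries, the families nearest to miR156 among 41 others were miR168 (0.170), which acts on AGO1, miR396 (0.210), which acts on growth-regulating factors, and miR159 (0.278), which acts on MYB factors. Nearest to miR529 were miR6300 (0.417), miR9774 (0.486) and miR1430 (0.537), all highest in CK3. Nearest to miR172 were miR6253 (0.716), miR162 (0.750), which acts on DCL1, and miR399 (1.05), which acts on the phosphate regulator PHO2, and each of these was listed at 0 in CK3. These distances rest on 4 libraries. Since each family's mean is taken out, they describe likeness of pattern over the libraries and not of abundance.

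The RefSeq annotation of maize (Zm-B73-REFERENCE-NAM-5.0) names 11 MIR156, 4 MIR172 and 1 MIR529 genes. With several genes behind one mature sequence, the values of zma-miR156a-5p and zma-miR172a_R+1 cannot be assigned to single precursors. The genome build behind the table is not given in the sources used here, so no coordinates are attached to the members.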

How the data were processed

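Small RNA libraries were prepared from Trizol-extracted RNA with a TruSeq kit and run on a HiSeq 2500, per the labels' protocols, which name a larger number of libraries than the 4 used. The deposited table holds, per the file headers, a normalized signal per sequence and library. How the authors aligned, called and scaled is not given in the sources used here, nor is a genome build. The members and lists were chosen with earlier results of these data known.

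Each distinct sequence was used once, with a maize name preferred. The worth of 1 read was taken as the largest step that made 85% or more of a library's low values whole, within 0.02 of a read. Between 90.4% and 93.8% of values above 0 were whole, so no count model was used. Single libraries were compared without a test, on log2(units + 1), a scale that understates differences between low values. Fed and unfed libraries were compared with limma 3.58.1 (R 4.3.3) and a trended prior, across all sequences that reached 10 units in 2 or more libraries, with adjusted p under 0.05 as the threshold. This step was tested on simulated data. No label states that the libraries are from separate plants, and a p-value here reflects only how these samples vary. Named with values are the members with at least 10 units in any library and those above 0 in a single library. Others named were chosen after their values were seen. Alternatives were another pseudocount, other scalings, no minimum, equal values counted once, the guide arm only, the other control, a block and leaving out a library.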

Additional observations from a re-analysis of the deposited data

Results flagged for a closer look

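The miR156 total differed in sign between the feeding times: its log2 difference was -0.0542 for T1 against CK1 and 0.21 for T3 against CK3. With 1 library on each side the difference between these values was not tested, and the first has a counting interval that includes equality. The sign for T1 rests on the unfed library and the arm used. Against CK3 for both times the values were 0.11 and 0.21, and against CK1 for both they were -0.0542 and 0.0495. With the guide arm only, each against its own control, they were 0.11 and 0.32.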

How the results depend on the processing

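Each comparison between libraries rests on 1 column of values per side, and the unfed library chosen changed more values than any other alternative run. Log2 differences of family totals moved as follows. With CK3 in place of CK1 as the control of T1 they were 0.11 for miR156, -0.99 for miR529 and 5.32 for miR172. With CK1 in place of CK3 as the control of T3 they were 0.0495, -0.34 and 0.32. With the guide arm only, miR156 was at 0.11, 0.32 and -0.0194 for T1 against CK1, T3 against CK3 and CK3 against CK1, and miR172 at -0.43 and 3.49 in the first pair of these. Without name-only members miR172 was at -0.36 for T1 against CK1. A pseudocount of 5 gave miR172 3.12 for T3 against CK3 and -2.83 for CK3 against CK1. Equal totals gave miR156 0.45 and -0.39 there, and median-of-ratios scaling gave it -0.29 for CK3 against CK1. No family total changed sign under these scalings.

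For T1 against CK1, 12 of 28 members (42.9%) were higher with no minimum, beside 36.0% of all sequences. With CK3 as the control 5 of 15 were higher and 2 lower, beside 16.3% and 25.8% of all. For T3 against CK3, 12 of 25 were higher (48%, beside 40.4% of all) and 2 lower (8%, beside 19.3%) with no minimum. Against CK1, 2 of 13 were higher in T3, beside 20.2% of all. For CK3 against CK1, 4 of 19 were higher with no minimum (21.1%, beside 31.1%). At equal totals 1 member was higher, beside 44 of all sequences. With a pseudocount of 5 it was also 1, for which no count over all sequences is given. The log2 differences that turned with the other control were -1.09 for bdi-miR156b-5p_R+2 in T1, and -1.25 for ata-miR156b-3p_1ss6TC, -0.59 for zma-miR172a_R+1 and -0.36 for zma-miR172c-5p_L+1 in T3. The cause was not tested. Counting equal values once and setting entries listed at 0 to 5 reads changed no members' count by over 1.5 times.

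In limma, leaving out a library in turn gave between 0 and 1 members called. The 1 call came without CK3, where 4 of 143 sequences and 1 of 12 members were called, for bdi-miR156b-5p_R+2 (log2 difference 3.86 ± 0.52, adjusted p 0.017), which is listed at 0 in CK1 and at 23.1 units in the library left out. A lone library on one side is assumed there to vary like the others. With the title number as a replicate block, 0 members were called. The numbers are not stated to pair libraries, and the correlation of same-numbered deviations was 0.31 over 154 sequences. No other limma alternative called a member.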
